A study of Arabidopsis thaliana with 24 samples.

Results

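H3K36me3, the trimethylation of lysine 36 of histone H3, lies over the bodies of transcribed genes, and in Arabidopsis SDG8 is a methyltransferase that writes it. The mark is laid down behind elongating RNA polymerase II and is generally found on genes that are being expressed. In shoots, sucrose and light act together as the signals that end carbon starvation, and both change the transcripts of many metabolic and regulatory genes within hours. The 9 genes described here, AT3G56290, AT5G59050, AT2G04039, AT5G02180, AT2G23840, AT1G13470, AT4G12830, AT5G53420 and AT4G17670, come from a list of 54 genes that the study called as gaining H3K36me3 in WT shoots after sucrose and light together. Of the 54 listed genes, 22 have a probe set assigned to that gene alone, and the 9 belong to these 22, out of 12431 genes measured in all. The list was chosen by H3K36me3 levels measured with chromatin immunoprecipitation and sequencing in other plants grown in the same way. The 9 were picked from the 22 with earlier results of these arrays known. Their counts and medians are therefore not those of an unselected set. The chromatin data were not analysed here, so the question asked of the arrays is which of the paired treatments, sucrose or light, moved each transcript, and whether the responses differed in the absence of SDG8.

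Each of the 9 genes has 1 probe set on the ATH1 array, and all 9 passed the filter on low signal (an intensity of at least 40 on at least 1 array), as did 21552 of 22810 probe sets. By the annotation used in the study, AT5G02180 encodes a transmembrane amino acid transporter family protein, AT2G23840 an HNH endonuclease, AT4G12830 an alpha/beta-hydrolase, AT5G53420 a CCT motif family protein, AT4G17670 a protein with the domain DUF581 and AT1G13470 one with the domain DUF1262. AT3G56290, AT5G59050 and AT2G04039 were annotated there as unknown proteins. CCT motifs are found in CONSTANS and in other plant regulators of transcription. No sequence is printed, because no sequence of these genes or of their promoters was among the material used.

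WT was the unmutagenized line that carries the pASN1-HPT2 reporter transgene. The sdg8-5 mutant, formerly cli186, was isolated from this line and is a single fast-neutron deletion, which removes the whole of SDG8 with its promoter and also the first exons of the neighbour AT1G77310, so an effect of losing SDG8 and one of damaging the neighbour cannot be told apart on these arrays. The study reported that SDG8 transgenes restored ASN1 repression, flowering time and H3K36me3 in this mutant, but no such line is among the arrays. All plants were grown for 3 weeks in hydroponics with 1% sucrose under long days, were starved for 24 h without sucrose in darkness, and were then given 2 h with 1% or 0% sucrose (+C or −C) in light of 70 µE or in darkness (+L or −L), after which shoots were harvested. The 8 conditions held 3 arrays each, 24 in all, from 3 sets of biological replicates. Neither SDG8 nor AT1G77310 has a listed probe set, so the genotypes were not checked by their own transcripts.

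The arrays had median intensities of 180 to 223 and correlated within a condition at 0.914 to 0.942 on the log2 scale. The shoot markers LHCB4.2, a light-harvesting protein, and PSAN, a photosystem subunit, read 4529 to 13763 and 3187 to 8837, and the flower marker AMS was under 40 on 20 of 24 arrays. Of the root markers, EXPA7, a root hair expansin, was under 40 on 9 arrays, while PYK10, a beta-glucosidase known from roots and hypocotyls, read 3406 to 8568 on every array. The summed root markers ranged over 4154 to 8683 in WT darkness and 4486 to 7640 in WT light, and neither root marker was called in any comparison of genotype, light or sucrose. A control probe set for 25S ribosomal RNA differed between conditions: its mean log2 intensity fell from 12.48 under −C−L to 8.63 under +C+L in WT, and from 13.74 to 9.63 in sdg8-5. On the arrays as a whole, fewer cells of a type and less RNA per cell cannot be told apart.

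Between −C−L and +C+L, the treatments by which the list was made, all 9 transcripts were higher in WT, by log2 differences of 1.41 to 4.16 with a median of 1.88. These values and those of sdg8-5 are given as a description only, because the genes were listed for a gain of H3K36me3 between the same treatments in WT and for its absence in sdg8-5. In sdg8-5, the differences ranged from 0.07 to 4.13 with a median of 2.80. AT5G02180 marked the lower end in the mutant, with 0.07 ± 0.35 (SE, 3 arrays per condition) against 1.68 ± 0.35 in WT. Over all 22 measured genes of the list, the WT median was 1.75, and 21 of the 22 were positive.

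The light and the sucrose responses were then taken apart, each averaged over both levels of the other signal. In WT, light raised 7 of the 9, and all 9 differences were positive (limma, Benjamini-Hochberg FDR under 0.05), where 14.5% of all probe sets tested were called higher with light. The median log2 light response of the 9 in WT was 1.86, against 0.00724 over all probe sets. Over the other 13 measured genes of the list, this WT median was 1.03. In sdg8-5, light raised 6 of the 9, where 13.4% of all probe sets were called higher, and the median was 2.09. Sucrose raised 2 of the 9 in WT and 3 in sdg8-5, where 4.65% and 8.34% of all probe sets were called higher. By sucrose level, light without sucrose raised 7 of the 9 in WT and 6 in sdg8-5 (11.2% and 11.4% of all probe sets), and light with sucrose raised 5 and 3 (7.04% and 5.52%). With sucrose, 7 of the 9 light differences in sdg8-5 were positive. In WT, AT5G59050 and AT1G13470 were called for light without sucrose and not with it. Their joint differences of 1.88 and 1.79 are the sum of 1.10 and 0.98 for sucrose in darkness and 0.78 and 0.81 for light added to sucrose, none of which was called (FDR by limma, 0.153 and 0.276, and 0.259 and 0.309). The light and the sucrose responses share arrays with the joint comparison and with each other and are not independent of it.

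**Figure D1:**
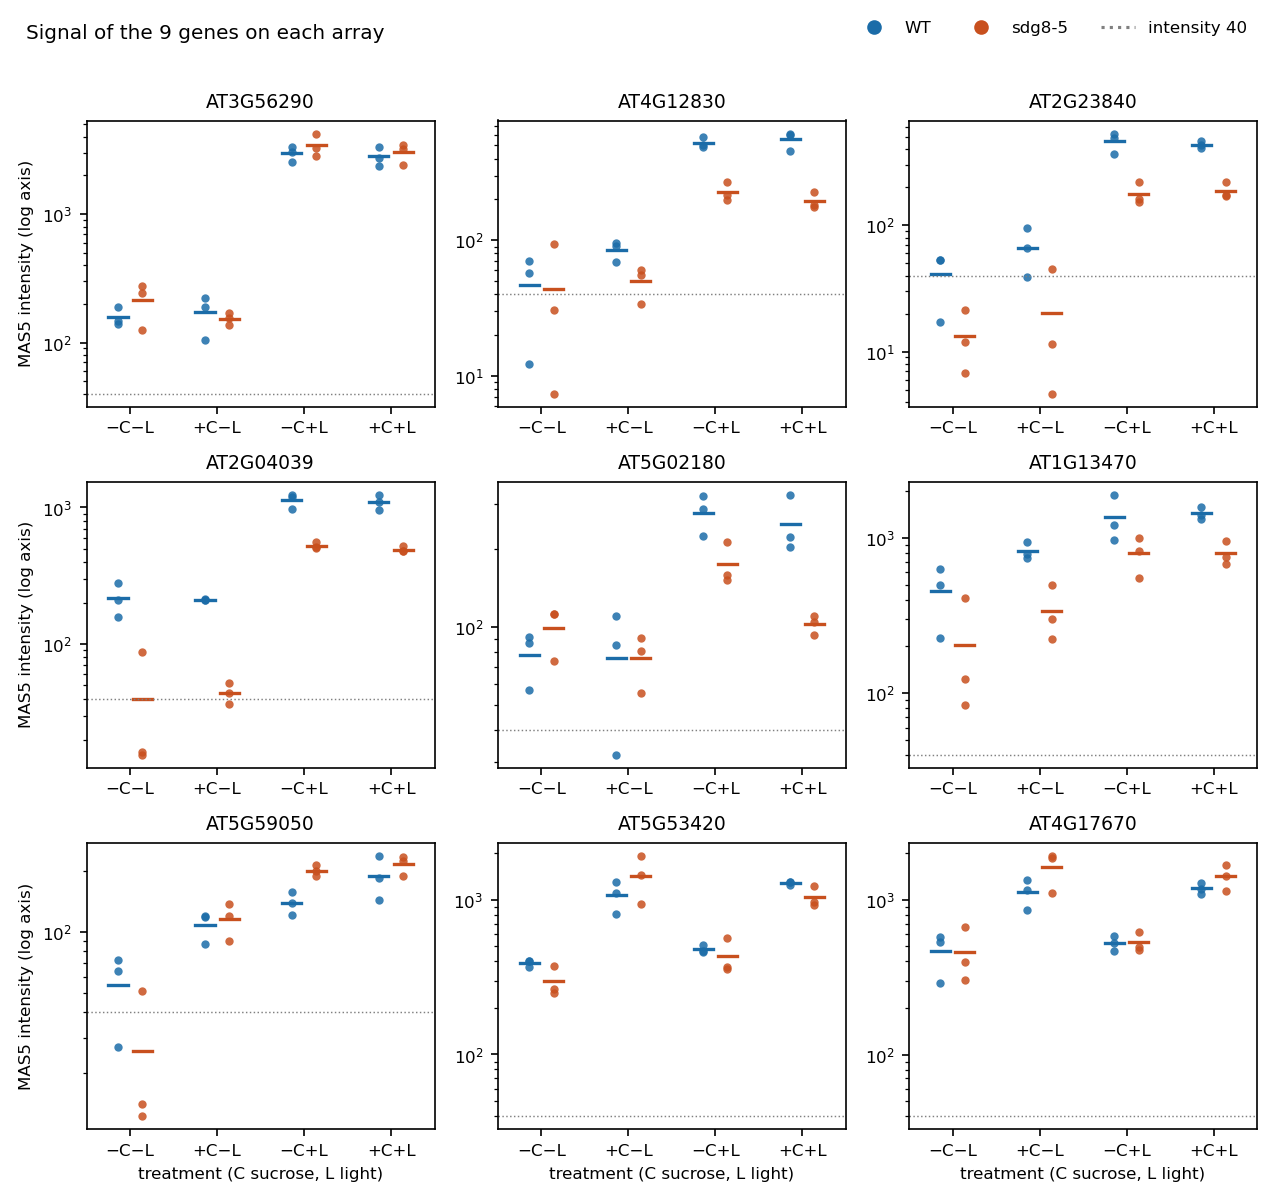
MAS5 intensity (log axis) of the 9 genes on each of the 24 arrays, by treatment (C sucrose, L light) and genotype; points are arrays, bars are means of 3 arrays, and the dotted line is the intensity of 40 used in the filter. AT3G56290 lies at 104 to 277 on all dark arrays and at 2368 to 4238 on all light arrays, and AT5G53420 and AT4G17670 follow sucrose instead.

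AT3G56290 had the largest light response of the 9 genes in both genotypes when averaged over sucrose, although AT2G04039 was slightly higher in sdg8-5 without sucrose (log2 4.22 ± 0.43 against 4.06 ± 0.29). In WT it read 188, 146 and 139 under −C−L and 104, 223 and 188 under +C−L. With light, the WT arrays read 3042, 2529 and 3331 without sucrose and 3333, 2368 and 2750 with it. Every light array was thus above every dark array, sucrose or not. In sdg8-5, the dark arrays read 277, 125 and 244 under −C−L and 154, 169 and 137 under +C−L, and the light arrays read 2812, 4238 and 3295 under −C+L and 2403, 3444 and 3221 under +C+L. The log2 light response was 4.17 ± 0.21 (SE) in WT, 17.9-fold, with an FDR of 1.09e-10 by limma, and 4.17 ± 0.21 in sdg8-5, with an FDR of 1.54e-10. The difference between these responses was 0.01, with a 95% interval of −0.60 to 0.62. Sucrose left the transcript within its replicate spread, with log2 responses of −0.01 ± 0.21 in WT and −0.30 ± 0.21 in sdg8-5 (FDR by limma, 0.991 and 0.395).

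AT2G04039, AT2G23840 and AT4G12830 also rose with light in both genotypes, from a low dark signal. AT2G04039 in WT read 158 to 281, with a median of 211, over the 6 dark arrays and 958 to 1239, with a median of 1137, over the 6 light arrays. In sdg8-5 it read 16.4, 15.5 and 87.9 under −C−L, 36.2, 44.0 and 52.2 under +C−L, 503, 563 and 514 under −C+L and 477, 477 and 522 under +C+L. Dark and light arrays did not overlap in either genotype, and the third −C−L array of sdg8-5 stood apart from the other two. The log2 light response was 2.39 ± 0.30 in WT (FDR 7.53e-06 by limma) and 3.86 ± 0.30 in sdg8-5 (FDR 3.2e-08).

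AT2G23840, the HNH endonuclease gene, read 17.3 to 95.1, with a median of 53.3, on the dark WT arrays and 370 to 535, with a median of 449, on the light ones. In sdg8-5, the dark arrays read 11.9, 6.78 and 21.3 under −C−L and 11.4, 4.65 and 44.9 under +C−L, and the light arrays read 221, 153 and 161 under −C+L and 221, 171 and 175 under +C+L. In the dark mutant, only 1 of these arrays reached 40, so the size of its fold rests on signals near the bottom of the scale. The log2 light responses were 3.23 ± 0.43 in WT (FDR 1.48e-05 by limma) and 3.85 ± 0.43 in sdg8-5 (FDR 2.59e-06).

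AT4G12830, the alpha/beta-hydrolase gene, read 12.2, 57.5 and 70.7 under −C−L and 90.8, 96.2 and 69.5 under +C−L in WT. With light the WT arrays read 457 to 612, with a median of 539. The mutant read 7.43 to 93.9 in darkness, with a median of 44.7, and 177 to 268 in light, with a median of 207. The light arrays again lay above all dark arrays of their genotype, and the log2 responses were 3.26 ± 0.47 in WT (FDR 3.05e-05 by limma) and 2.51 ± 0.47 in sdg8-5 (FDR 0.00057).

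AT5G02180, the amino acid transporter family gene, was called for light in WT and missed the threshold in sdg8-5. The WT arrays read 86.3, 57.1 and 91.2 under −C−L, 31.9, 110 and 85.5 under +C−L, 286, 226 and 323 under −C+L and 326, 224 and 205 under +C+L. The sdg8-5 arrays read 112, 112 and 74.1 under −C−L, 90.6, 55.3 and 80.9 under +C−L, 214, 152 and 159 under −C+L and 93.0, 110 and 105 under +C+L. In WT all 6 light arrays were above all 6 dark ones. In sdg8-5 the light arrays lay above the dark ones at each sucrose level, as for 19.3% of all probe sets without sucrose and 13.4% with it. They overlapped only across sucrose levels, +C+L with −C−L. The log2 sucrose response in sdg8-5 was −0.58 ± 0.25 (FDR 0.142 by limma), and −0.76 ± 0.35 within light (FDR 0.451). The log2 light response was 1.86 ± 0.25 in WT (FDR 1.44e-05 by limma) and 0.65 ± 0.25 in sdg8-5 (FDR 0.0682). The mutant light call of AT5G02180 depended on the setting. It was called when probe sets had to reach 100 on 3 or more arrays (FDR 0.044) and with 16 added before the log2 (FDR 0.0486). It was also called without all arrays numbered 1 (FDR 0.0452), and without the first or the second WT array under +C−L (FDR 0.012 and 0.0435). In the other direction, its FDR rose to as much as 0.525 over the alternative fits and 0.319 with arrays left out. The difference between the 2 genotypes is given with the other interactions below.

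AT1G13470, the DUF1262 gene, and AT5G59050 had smaller light responses in WT that depended on the replicates. AT1G13470 read 226, 499 and 634 under −C−L, 789, 746 and 936 under +C−L, 1902, 975 and 1206 under −C+L and 1575, 1412 and 1333 under +C+L in WT. Its log2 light response was 1.23 ± 0.33 in WT (FDR 0.00898 by limma) and 1.77 ± 0.33 in sdg8-5 (FDR 0.000641). The WT call for AT1G13470 was lost without the arrays numbered 1 (0.83, FDR 0.202) and without those numbered 2 (1.38, FDR 0.0575). The mutant read 83.9 to 497, with a median of 262, in darkness and 553 to 1004, with a median of 790, in light, so its dark and light arrays did not overlap.

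AT5G59050 read 63.6, 72.8 and 27.0 under −C−L, 118, 120 and 86.5 under +C−L, 121, 156 and 139 under −C+L and 236, 184 and 143 under +C+L in WT. In sdg8-5, it read 14.1, 12.3 and 51.0 under −C−L, 89.7, 120 and 136 under +C−L, 187, 200 and 212 under −C+L and 189, 223 and 234 under +C+L. Of the 9 genes it was the only one called for both light and sucrose in the same genotype, sdg8-5. Its log2 light responses were 1.12 ± 0.29 in WT (FDR 0.0074 by limma) and 2.09 ± 0.29 in sdg8-5 (FDR 3.47e-05). Its log2 sucrose responses were 0.76 ± 0.29 in WT (FDR 0.134) and 1.28 ± 0.29 in sdg8-5 (FDR 0.00611). Without the arrays numbered 1 or 2, the WT light call for AT5G59050 was lost (FDR 0.0765 and 0.0641), and so was its mutant sucrose call (FDR 0.0995 and 0.22). Its WT sucrose response was called on untransformed intensities (51.3 ± 14.7 units, FDR 0.0388 in the ANOVA).

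Within sdg8-5, the sucrose response of AT5G59050 was called in darkness and not in light. It was 2.46 ± 0.42 on the log2 scale between the dark conditions (FDR 0.000598 by limma) and 0.11 ± 0.42 between the light conditions (FDR 0.973). The difference between these, the interaction of sucrose and light in sdg8-5, was −2.35 ± 0.59 with an FDR of 0.158, and none of the 9 genes was called by limma for this interaction, where 0.0838% of all probe sets were, although 2 of the 9 had an unadjusted p under 0.05. Without the third −C−L array of sdg8-5, the one that reads 51.0 in AT5G59050, the interaction was −3.00 with an FDR of 0.011. The values left in that condition are both under 40. Over all fits that left out arrays, this interaction ranged over −3.00 to −1.96, with an FDR of up to 0.898.

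AT5G53420 and AT4G17670 were the genes of the 9 that sucrose raised in both genotypes, and light changed neither of them past the threshold. AT5G53420, the CCT motif gene, read 368, 401 and 404 under −C−L and 456, 507 and 469 under −C+L in WT. With sucrose it read 1295, 808 and 1102 in darkness and 1293, 1240 and 1298 in light. In sdg8-5, it read 248, 266 and 375 under −C−L, 568, 365 and 357 under −C+L, 936, 1915 and 1439 under +C−L and 917, 965 and 1228 under +C+L. The 6 arrays with sucrose lay above the 6 without it in each genotype. The log2 sucrose responses of AT5G53420 were 1.42 ± 0.17 in WT (FDR 6.62e-05 by limma) and 1.76 ± 0.17 in sdg8-5 (FDR 1.76e-06). Its log2 light responses were 0.29 ± 0.17 and 0.06 ± 0.17, with 95% intervals of −0.07 to 0.64 and −0.30 to 0.41.

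AT4G17670, the DUF581 gene, read 291, 533 and 575 under −C−L and 586, 464 and 526 under −C+L in WT. With sucrose it read 1342, 857 and 1154 in darkness and 1182, 1287 and 1096 in light. In sdg8-5, it read 302, 398 and 671 under −C−L, 476, 497 and 620 under −C+L, 1859, 1920 and 1103 under +C−L and 1688, 1428 and 1134 under +C+L. As for AT5G53420, no array with sucrose fell into the range of the arrays without it. Non-overlap of this kind, 6 arrays above 6, was met by 1.04% of all probe sets for sucrose in WT and 1.66% in sdg8-5, and by 6.82% and 5.4% for light. The log2 sucrose responses of AT4G17670 were 1.24 ± 0.21 in WT (FDR 0.00118 by limma) and 1.64 ± 0.21 in sdg8-5 (FDR 3.66e-05), and its light responses were 0.17 ± 0.21 and 0.06 ± 0.21. Without the arrays numbered 2, the WT sucrose call for AT4G17670 was lost (1.32, FDR 0.0685).

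**Figure D2:**
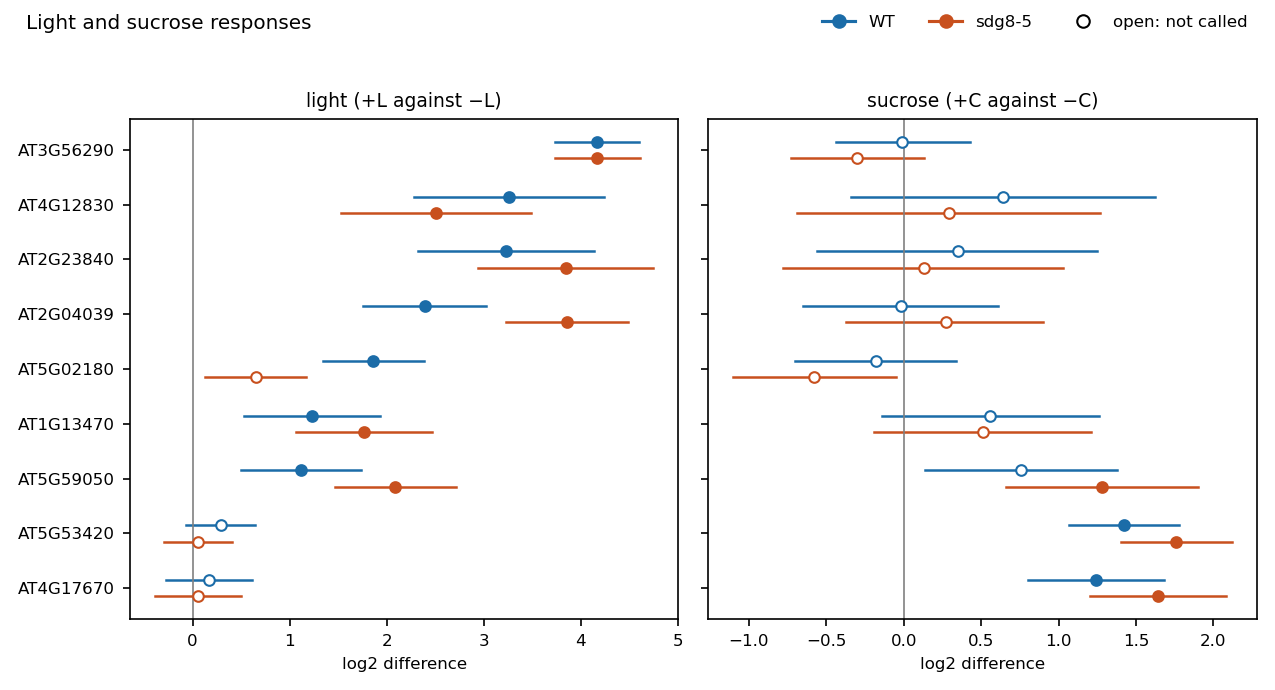
Log2 differences of the 9 genes between +L and −L (left) and between +C and −C (right) in WT and sdg8-5; lines are 95% intervals of the limma fit with 6 arrays on each side, filled points were called at an FDR under 0.05 and open points were not. The upper 7 genes lie to the right of 0 in the light panel, with AT5G02180 in sdg8-5 as an open point at 0.65. AT5G53420 and AT4G17670 lie near 0 there and at 1.24 to 1.76 in the sucrose panel.

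The control and marker values that moved with the light response are these. The 25S control was lower in light in both genotypes, and over the 24 arrays it correlated with the 9 genes at −0.28 (AT4G17670) to −0.89 (AT2G23840). These points share their conditions, and the part of the 25S signal in the responses was not tested apart from 1 alternative fit. In that fit, with the 25S signal as a covariate, 4 of the 9 genes were called for light in WT in place of 7: AT5G59050, AT2G23840 and AT1G13470 were lost, with log2 responses of 1.31, 2.43 and 0.41, against 1.12, 3.23 and 1.23 in the main fit. The 25S signal itself moved with light (WT means of 12.48 and 11.03 in darkness, 8.82 and 8.63 in light), so this fit cannot separate the 2, and a lost call can come with an unreduced response. In sdg8-5 the count fell from 6 to 4 in the same fit, with AT1G13470 (0.98 against 1.77 in the main fit, FDR 0.47) and AT4G12830 (2.57 against 2.51, FDR 0.138) lost. Of the 4 shoot markers, 3 rose with light in WT and 2 in sdg8-5. SBPASE, a Calvin cycle enzyme gene, rose most among them, by 1.75 in WT and 1.68 in sdg8-5.

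Genes known to follow these signals moved as separate lists. Of 9 genes known to be raised by carbon starvation, 6 had a probe set, and all 6 were called lower with sucrose and lower with light in each genotype. AT3G15450 had log2 sucrose responses of −2.32 in WT and −3.12 in sdg8-5. HYH, a bZIP transcription factor of light signaling and the measured member of 6 listed light-induced genes, rose with light by 2.87 in WT and 3.31 in sdg8-5, and was not called for sucrose averaged over light and darkness, but it was called higher with sucrose in dark sdg8-5 (log2 2.23). Of 6 genes for subunits of the SnRK1 kinase, which is active under starvation, 3 were measured, and AKINBETA1 was called lower with sucrose and with light in both genotypes, by 2.51 on the log2 scale with light in WT. Of 10 genes of the DUF581 family, 7 were measured, AT4G17670 among them, and sucrose raised 3 in WT and 4 in sdg8-5, where light raised 3 and 2 and lowered 1 in each. The medians of the 9 genes are positive for light and for sucrose in both genotypes, the opposite direction to the starvation list. For sucrose the single genes were mixed: 6 of the 9 differences were positive and 2 were called in WT, and 7 were positive and 3 were called in sdg8-5.

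Between the genotypes, averaged over the 4 treatments, 4 of the 9 genes were called lower in sdg8-5, and 0 were called higher or had an unadjusted limma p under 0.05 in that direction, where 10.5% of all probe sets were called lower. They were AT2G04039 at −1.86 ± 0.21 on the log2 scale (FDR 6.01e-06 by limma), AT2G23840 at −1.61 ± 0.31 (FDR 0.000996), AT1G13470 at −1.08 ± 0.24 (FDR 0.003) and AT4G12830 at −0.98 ± 0.33 (FDR 0.0444). The median over the 9 genes was −0.36, against 0.0109 over all probe sets. For the other 13 measured genes of the list it was 0.07, with 8 of the 13 positive and 3 called lower. AT3G56290, AT5G53420 and AT4G17670 differed by 0.15, −0.13 and 0.18, with 95% intervals of −0.16 to 0.45, −0.39 to 0.12 and −0.13 to 0.49. AT5G02180 and AT5G59050 differed by −0.36 ± 0.18 and −0.11 ± 0.21, and neither was called on the log2 scale. On untransformed intensities, AT5G02180 was called lower in sdg8-5 (−57.9 ± 14.9 units, FDR 0.0115 in the ANOVA).

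The 4 calls differed in how far they rested on single arrays. AT2G04039 was called under every alternative and with any array left out, at −2.07 to −1.60 on the log2 scale. AT2G23840 was lost without the arrays numbered 1 (−1.48, FDR 0.0641) and AT1G13470 without those numbered 2 (−0.97, FDR 0.0959). AT4G12830 was lost in 24 of the fits that left out arrays, with −1.20 to −0.62 over all of them. With the 25S signal as a covariate, AT2G04039 alone was called, and AT2G23840, AT1G13470 and AT4G12830 stood at −1.20, −0.66 and −1.01, with an FDR of 0.176, 0.339 and 0.321. The mean 25S signal was higher in sdg8-5 in each treatment. It was 13.74 against 12.48 under −C−L, 12.81 against 11.03 under +C−L, 11.03 against 8.82 under −C+L and 9.63 against 8.63 under +C+L. Under −C+L, 1 sdg8-5 array read 12.97 and the others 10.02 and 10.09. All 4 shoot markers were also called lower in the mutant, by 0.37 for LHCB4.2 to 0.54 for SBPASE on the log2 scale. The study lists all 4 as functional targets of SDG8, which it defined by lower H3K36me3 and lower expression in sdg8-5. That expression was measured on these arrays, so the direction of the markers was given in advance, and they are no neutral measure of shoot content between genotypes. The summed shoot markers read 17393 to 21840 in WT and 16379 to 17292 in sdg8-5 under −C−L, and 13198 to 15936 and 8692 to 11480 under +C−L. With light they read 22112 to 27801 and 18302 to 22275 without sucrose, and 17838 to 26263 and 14049 to 17485 with it, and their part in the genotype differences was not tested.

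By treatment, AT2G04039 was the gene whose 3 mutant arrays lay below the 3 WT arrays in all 4. Its log2 differences were −2.90 ± 0.43 under −C−L (FDR 0.000491 by limma), −2.28 ± 0.43 under +C−L (FDR 0.00389), −1.10 ± 0.43 under −C+L (FDR 0.244) and −1.15 ± 0.43 under +C+L (FDR 0.199). AT2G23840 was called under +C−L, at −2.23 ± 0.61 (FDR 0.0448). No other single treatment gave a call for any of the 9, and in these tests 2.96% and 3.21% of all probe sets were called lower under −C−L and +C−L and 1.45% under each light treatment. Under +C+L, the mutant arrays lay below all WT arrays for 6 of the 9 genes, where 10.3% of all probe sets did: AT2G04039, AT5G02180, AT2G23840, AT1G13470, AT4G12830 and AT5G53420. Under −C+L this held for 4 genes (10.1% of all probe sets), under +C−L for 3 (12.2%) and under −C−L for 1 (10.5%). For AT5G02180, the +C+L difference was −1.27 ± 0.35 (FDR 0.0716) and the −C−L difference was 0.35 ± 0.35 (FDR 0.701). AT5G59050 went the other way under −C+L, where its mutant arrays (187 to 212) lay above those of WT (121 to 156) with a difference of 0.53 ± 0.42 (FDR 0.656).

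**Figure D3:**
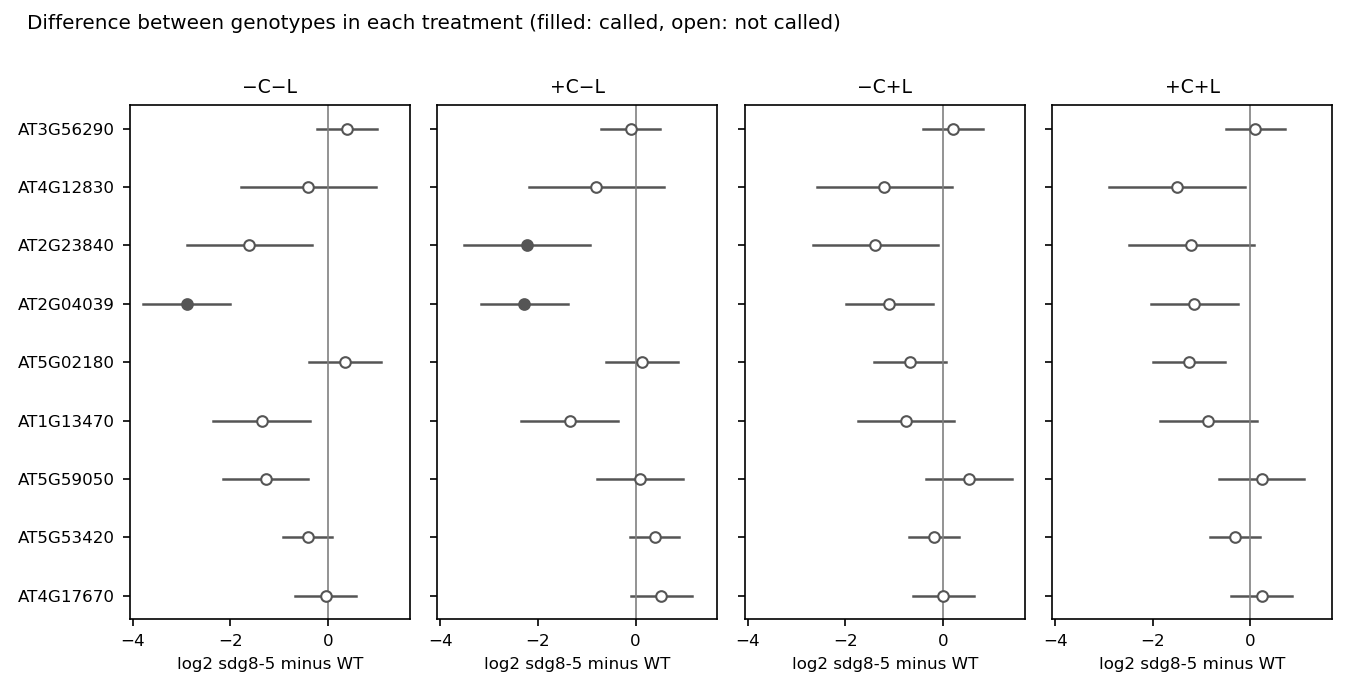
Log2 difference between sdg8-5 and WT for the 9 genes in each of the 4 treatments, with 3 arrays per genotype; lines are 95% intervals of the limma fit, and filled points were called at an FDR under 0.05. AT2G04039 is called under both dark treatments and AT2G23840 under +C−L, and the interval of AT3G56290 holds 0 in all 4.

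Whether the responses themselves differed between genotypes was tested with interaction terms, at the FDR of 0.15 that the study used for genotype by light. None of the 9 was called for genotype by light, where 0.0372% of all probe sets were, or for genotype by carbon, where 0.00465% were. For genotype by carbon, the differences of the sucrose responses ranged from −0.40 to 0.53 over the 9, and 0 had an unadjusted limma p under 0.05. For genotype by light, 3 genes had an unadjusted limma p under 0.05: AT2G04039 with 1.47 ± 0.43 (FDR 0.486), AT5G02180 with −1.21 ± 0.35 (FDR 0.486) and AT5G59050 with 0.97 ± 0.42 (FDR 0.745). The first and the last responded more to light in the mutant on the log2 scale, and AT5G02180 responded less. Without the third −C−L array of sdg8-5, which reads 87.9 in AT2G04039 against 16.4 and 15.5, the interaction of AT2G04039 was 1.88 with an FDR of 0.00025. The values left in that condition are both under 40, so this fit rests on signals near the bottom of the scale. Without all arrays numbered 3, AT2G04039 and AT5G59050 were called, at 1.99 and 1.52 (FDR 0.0521 and 0.0984). No other fit that left out arrays called these 3 terms. Over all such fits they ranged over 1.09 to 1.99 for AT2G04039, 0.659 to 1.52 for AT5G59050 and −1.43 to −0.793 for AT5G02180. Interactions of sucrose with light in WT were called by limma for 0 of the 9, where 0.014% of all probe sets were, and 0 had an unadjusted p under 0.05. The ANOVA on log2 values also called 0 of the 9 for each of these interactions.

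The direction of these differences depended on the scale. On untransformed intensities, which the three-way ANOVA of the study can also be run on, 4 of the 9 were called for genotype by light, where 0.605% of all probe sets were, and all 4 had the smaller light rise in sdg8-5. AT2G04039 gained 898 units from darkness to light in WT and 467 in sdg8-5, a difference of −431 ± 62.5 (FDR 0.00481), opposite in sign to its log2 interaction. AT2G23840 gained 398 and 167 units, with a difference of −231 ± 31.7 (FDR 0.00369), while its log2 interaction was 0.62 ± 0.61. AT4G12830 gained 471 and 164 units, with a difference of −307 ± 35.2 (FDR 0.000772), and AT5G02180 gained 188 and 51.5, with a difference of −136 ± 29.9 (FDR 0.0906). For AT5G02180 and AT4G12830 the sign was the same on both scales, at −1.21 and −0.75 on the log2 scale. AT2G04039 and AT2G23840 thus had a smaller rise in signal and a larger or similar fold in the mutant, from dark means of 42.0 and 16.8 against 214 and 54.0 in WT.

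**Figure D4:**
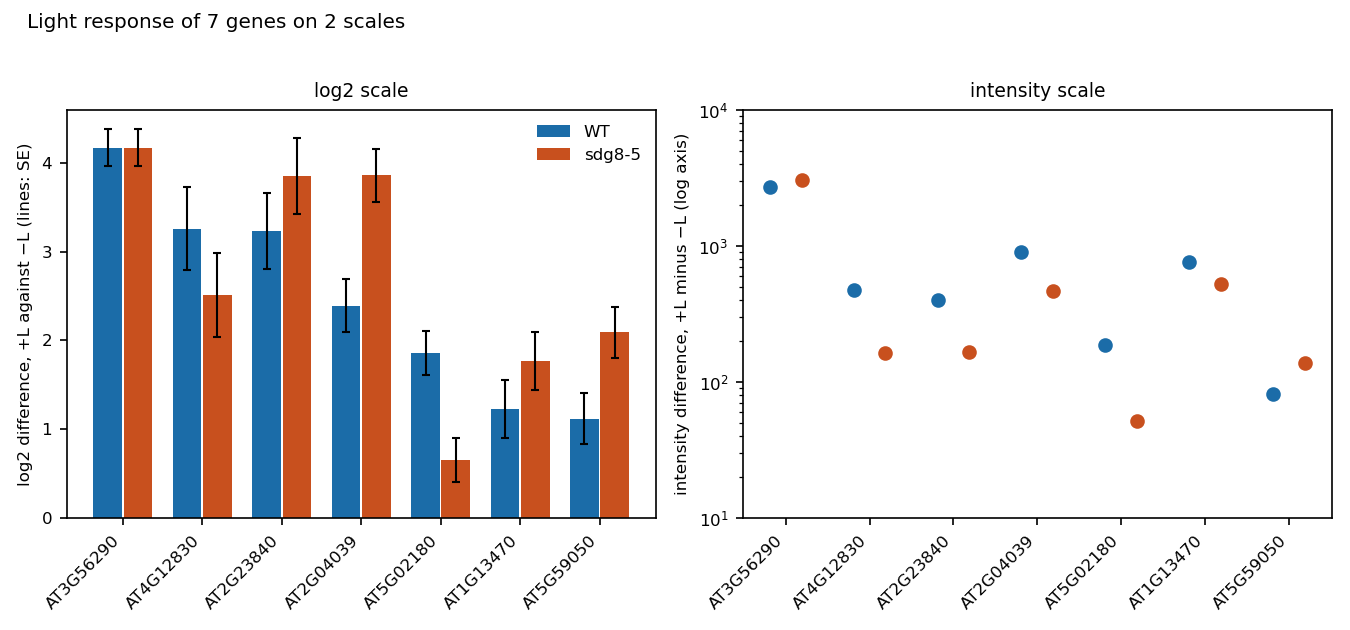
Light response of the 7 genes that light raised in WT, as the log2 difference with its SE (left) and as the difference of mean intensities (right, log axis), with 6 dark and 6 light arrays per genotype. AT2G04039 has the higher point in sdg8-5 on the log2 scale (3.86 against 2.39) and in WT on the intensity scale (898 against 467), and AT5G02180 is higher in WT on both.

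The order of the 8 conditions by mean log2 level repeated these groups. For AT3G56290, the 4 dark conditions came lowest, with means of 153 to 216, and each overlapped the next, as did the 4 light conditions, at 2817 to 3448. For AT2G04039 and AT2G23840, the order ran from sdg8-5 in darkness to WT in darkness, sdg8-5 in light and WT in light. The arrays of AT2G04039 stood apart at each of these steps, and those of AT2G23840 overlapped at the first step between sdg8-5 and WT in darkness. For AT5G53420 and AT4G17670, the 4 conditions without sucrose came lowest, at means of 297 to 477 and 457 to 531, and the highest was sdg8-5 under +C−L, at 1430 ± 490 and 1628 ± 455 (mean ± SD over 3 arrays). Neither of these highest means stood apart from the condition next below it.

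Over the 24 arrays, AT5G53420 and AT4G17670 correlated with each other at 0.89 on the log2 scale, and with the other 7 genes at −0.24 to 0.58. The 7 genes correlated among themselves at 0.31 to 0.93, highest for AT2G04039 with AT2G23840. These values are descriptions, as the arrays share conditions and scaling. Among 7929 probe sets assigned to 1 gene with a mean intensity of at least 100, the patterns most like AT3G56290 were those of AT5G62140 (0.986) and AT5G42760 (0.982). For AT5G53420, the closest were AT5G64550 (0.909) and AT4G17670 itself (0.888), and AT3G27570 was closest to AT4G17670 (0.906). AT2G04039 was most like AT2G29360 (0.969), AT5G59050 most like AT5G39840 (0.943), AT2G23840 most like AT1G51805 (0.941) and AT1G13470 most like scpl46 (0.918). AT4G12830 was most like Cpn60beta4 (0.915), a chaperonin subunit gene, and AT5G02180 most like MTP11 (0.880), which had the lowest best match of the 9.

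The other 13 measured genes of the list show how the 9 stand within it. Light raised 10 of the 13 in WT and 9 in sdg8-5, and sucrose raised 5 and 6. AT3G44450 had the largest light response among them, with log2 3.05 ± 0.13 in WT and 3.41 ± 0.13 in sdg8-5, followed in WT by AT1G33110 (1.75), GLR2.7, a glutamate receptor-like gene (1.65), and AT1G22160, also of the DUF581 family (1.56). For sucrose in WT the largest were AT2G20560 (0.99) and AT4G36640 (0.97), both below AT5G53420 and AT4G17670. Over all 22 genes, light raised 17 and lowered 0 in WT and raised 15 and lowered 1 in sdg8-5. The gene lowered was AT1G80130, at −0.74 ± 0.21 (FDR 0.0149 by limma), which sucrose raised in the mutant by 1.55 ± 0.21. Sucrose raised 7 of the 22 in WT and 9 in sdg8-5, and 7 were lower and 0 higher in sdg8-5 over all treatments. None of the 22 was called by limma for either interaction with genotype, and 3 had an unadjusted p under 0.05 for each. AT1G10690, chosen here after its values were seen because it was the 1 gene of the 22 with a negative joint response in WT (−1.67), had a sucrose response of −1.75 ± 0.54 there (FDR 0.0529).

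**Figure D5:**
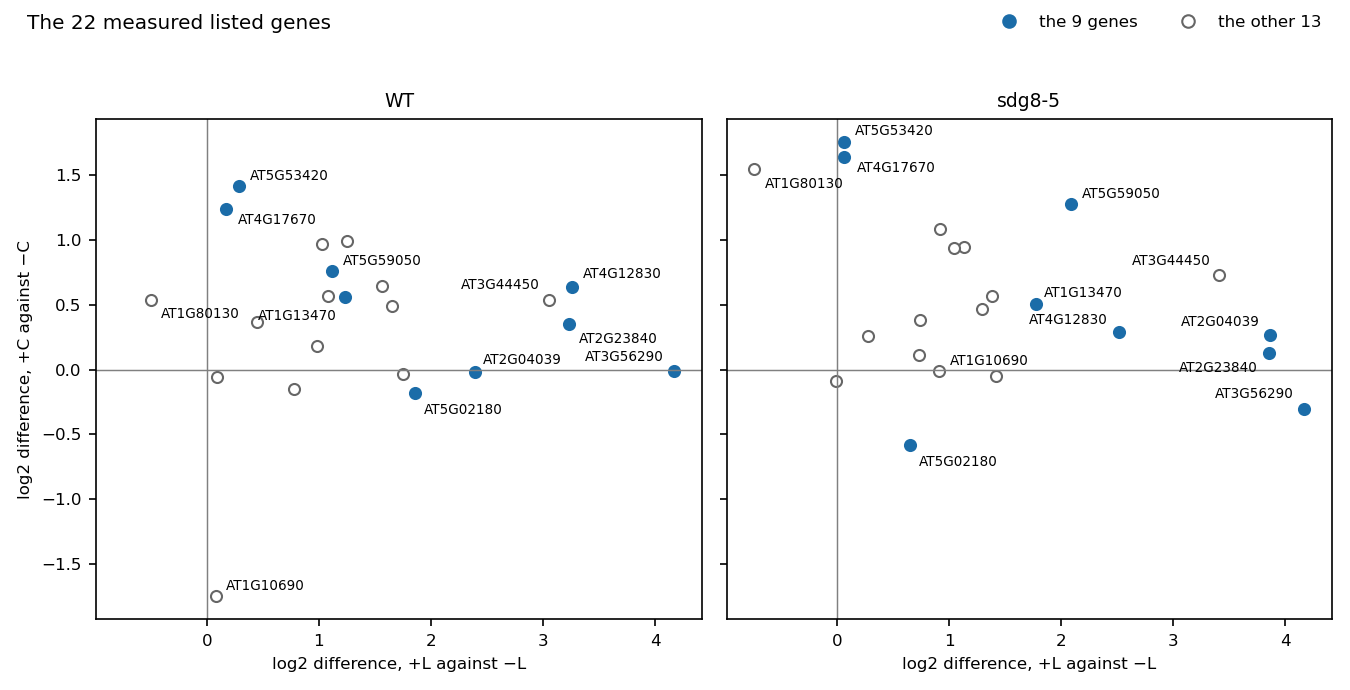
Log2 light response (horizontal) against log2 sucrose response (vertical) of the 22 measured genes of the list, in WT and in sdg8-5; filled points are the 9 genes and open points the other 13. AT5G53420 and AT4G17670 lie at the top with light responses near 0, and AT3G56290 lies farthest to the right at 4.17 in both genotypes.

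A second list of the study holds 9 genes that gained H3K36me3 in sdg8-5, of which 2 were measured. Light raised both, Cpn60beta4 by log2 1.18 in WT and 1.24 in sdg8-5 and AT4G39970 by 0.67 and 0.59, and both were lower in sdg8-5, by 0.45 and 0.51. Neither was called for sucrose.

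Of the 18 neighbours before and after the 9 genes, in the gene order of the TAIR10.1 annotation, 9 had a probe set. None of the 9 neighbours was called by limma for light in either genotype or for sucrose in WT, where 2, 2 and 1 had an unadjusted p under 0.05. AT3G56270, next to AT3G56290, rose with sucrose in sdg8-5 (0.88 ± 0.25, FDR 0.0218 by limma), which AT3G56290 itself did not. AT4G12840, next to AT4G12830, was lower in sdg8-5 (−0.64 ± 0.13, FDR 0.00142), the same direction as its neighbour, and its light responses of 0.44 and 0.50 had FDRs of 0.0767 and 0.0503.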

How the data were processed

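RNA from shoots was labeled with a one-cycle kit and hybridized to ATH1 arrays, and the authors summarized the signal with MAS5. What they deposited is a linear intensity for each of 22810 probe sets. Its mean without the highest and lowest 2% was 500 on the first WT array under −C−L, the array for which it was computed. Probe sets reaching 40 on at least 1 array were kept (21552, of which 62 are controls), and log2 of the deposited intensity was modelled by the means of the 8 conditions in limma 3.58.1 (lmFit, then eBayes) under R 4.3.3. The fit had 16 residual degrees of freedom and a prior worth 1.813. P-values were adjusted by Benjamini-Hochberg over all kept probe sets, with thresholds of 0.05, and 0.15 for genotype by carbon and by light. The fit was tested on simulated data. The RNA came from 3 sets of biological replicates, whose growth in separate batches is not stated; the number of arrays limits the precision. Probe sets of different genes were not compared in level.

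The 9 genes, the gene lists and the tests were chosen with earlier results of these data known. All 9 genes are named. Of the other listed genes, at most 4 called genes with the largest change per contrast were named, of the other gene lists at most 2, and for likeness the 2 highest Pearson correlations per gene, of which 1 is printed for most. The neighbouring genes were added after the data were seen. Names came from the platform annotation and from TAIR10.1. Alternatives were other filters, a pseudocount of 16, quantile normalization, median centring, the three-way ANOVA on log2 and on untransformed intensities, blocking by replicate number, by bioC hybridization control level or by 25S signal, and leaving out arrays. Figures were drawn with Python 3.11.15 and matplotlib 3.10.9.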

Additional observations from a re-analysis of the deposited data

How the results depend on the processing

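Of 50 results for single genes, 22 were called, of which 12 were called under every alternative and 0 turned direction. The counts of called genes moved by over 1.5 times under these alternatives: 4 for genotype by light on untransformed intensities, and, with the 25S signal as a covariate, 4 for light in WT and 1 for genotype. With arrays left out, the counts ranged over 1 to 3 for sucrose in WT, 2 to 5 in sdg8-5, 5 to 7 for light in WT, 6 to 7 in sdg8-5, 2 to 4 for genotype, 0 to 2 for genotype by light and 0 to 2 for sucrose by light in sdg8-5. The extremes were 1 for sucrose in WT without the arrays numbered 2, 2 for genotype without those numbered 1 or 2, and, without the third −C−L array of sdg8-5, 5 for sucrose in sdg8-5, 1 for genotype by light and 2 for sucrose by light. The cause of these changes was not tested.

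Signs turned for values that were not called. On untransformed intensities, the sucrose responses of AT2G23840 in WT (−2.04 units) and of AT2G04039 and AT4G12830 in sdg8-5 (−15.1 and −13.2), the sdg8-5 light responses of AT5G53420 and AT4G17670 (−130 and −68.5), the genotype difference of AT5G59050 (17.0) and the genotype by light term of AT2G04039 (−431) had the other sign. Quantile normalization gave −0.00808 and median centring −0.0594 for light in sdg8-5 in AT5G53420, and median centring gave −0.0590 in AT4G17670. With the 25S covariate, the values were 0.106 for sucrose in WT in AT3G56290, −0.183 for sucrose in sdg8-5 in AT2G23840, −0.194 and −0.133 for light in WT and −0.411 and −0.238 for light in sdg8-5 in AT5G53420 and AT4G17670, and −0.0672 and 0.115 for genotype in AT3G56290 and AT5G53420. With arrays left out, values of the other sign also occurred, over ranges of −0.124 to 0.0833 (AT2G04039, sucrose in WT), −0.312 to 0.506 (AT2G23840, sucrose in sdg8-5), −0.140 to 0.168 (AT3G56290, sucrose in WT), −0.215 to 0.867 (AT4G12830, sucrose in sdg8-5), −0.0737 to 0.215 (AT4G17670, light in sdg8-5), −0.501 to 0.0898 (AT5G02180, sucrose in WT), −0.208 to 0.216 (AT5G53420, light in sdg8-5) and −0.521 to 0.122 (AT5G59050, genotype).

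Same-numbered arrays were not treated as paired, since the deviations from condition means did not correlate above 0.1 in every pair: they ranged from −0.109 to 0.134 (mean 0.0276, against −0.0138 for different numbers). As a hint from the data and not from the design, 16 of 24 arrays correlated best with their own number. A weaker deviation shared by same-numbered arrays would not meet the criterion used, so whether they share one was not settled. With the replicate block, the counts stayed at 2 and 3 for sucrose, 7 and 6 for light and 4 for genotype. With the bioC level as a factor, AT4G12830 lost its genotype call (−1.02, FDR 0.058), and it also lost it in the ANOVA on log2 values (−0.98, FDR 0.0574). The bioC level was higher on 4 WT and 8 sdg8-5 arrays and lower on 8 and 4, so it is partly mixed with genotype. It also followed the replicate number, lower on all arrays numbered 1 and higher on all numbered 3. Among the arrays numbered 2 it was lower in WT and higher in sdg8-5, so there it cannot be told apart from genotype. The planned search of promoters for motifs was not run. Signals under 40 in dark sdg8-5 arrays limit the folds of AT2G23840, AT2G04039, AT4G12830 and AT5G59050.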
